A study of Homo sapiens with 6 samples.

Results

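The genes of the respiratory chain were taken from the count matrix by symbol, as the 13 protein genes of the mitochondrial genome together with every nuclear row named as a subunit of complexes I to V. In all, 122 of the 35268 named genes met this rule, 13 mitochondrial and 109 nuclear. Of the nuclear rows 86 were protein coding and 23 were pseudogenes, none of which exceeded a mean normalized count of 0.754. All 13 mitochondrial and 80 of the nuclear genes reached a mean normalized count of 10 over the 6 libraries and were tested. The 6 protein coding genes that did not reach it were COX4I2, COX6A2, COX7B2, COX6B2, COX8C and ATP5MGL, mostly isoforms known from particular tissues such as lung, heart, muscle or testis. NDUFA4, which carries the name of a complex I subunit, is a subunit of complex IV and was placed there.

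The respiratory chain passes electrons from NADH (complex I) and succinate (complex II) through complexes III and IV to oxygen, and complex V, the ATP synthase, uses the resulting proton gradient to make ATP. Complexes I, III, IV and V are built from subunits of both genomes: the mitochondrial genome codes for hydrophobic core subunits and is transcribed by its own polymerase as long precursors, whereas all other subunits are transcribed in the nucleus and imported. Complex II is wholly nuclear encoded. Several nuclear genes of the chain are known to be activated by GABP, a member of the ETS family, and by NRF1, and muscle cells carry some muscle isoforms of complex IV subunits.

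Rh30 is an established cell line from a rhabdomyosarcoma that carries the PAX3-FOXO1 fusion (FP-RMS). The study asked how gene expression in these cells changes under YK-4-279, a small molecule directed at ETS factors. Polyadenylated RNA was sequenced from 3 libraries of cells given the vehicle, DMSO, and 3 of cells given 1 µM YK-4-279 in DMSO, both for 24 hours. All 6 libraries came from this single line, and the labels do not say whether the replicates were separate cultures, so the p-values measure the spread between these samples, which may be technical. The libraries are bulk RNA, in which fewer cells of a kind and less RNA per cell cannot be told apart.

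Where mitochondrial reading frames overlap, reads cannot be given to a single gene, and the overlaps of ATP8 with ATP6 and of ND4L with ND4 are shown because the levels of these genes are compared below. The hg38 sequence at chrM:8527-8572, on the plus strand, holds the last 46 bases of ATP8 and the first of ATP6, with the start codon of ATP6 and the stop codon of ATP8 in capitals. That at chrM:10733-10793, also on the plus strand, holds in capitals the 7 bases shared by the end of ND4L and the start of ND4.
ATP8 and ATP6: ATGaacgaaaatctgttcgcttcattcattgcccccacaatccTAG
ND4L and ND4: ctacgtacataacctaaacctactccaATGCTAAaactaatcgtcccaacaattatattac

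The promoters of 2 genes of complex III are shown because they hold the letters searched for below, UQCRH a core bound by ETS factors and GABP (CTTCCGG, the reverse complement of CCGGAAG) and UQCRC1 a core bound by NRF1 (TGCGCA), each in capitals. They are RefSeq sequences on GRCh38.p14 from 250 bases before to 50 bases after the start, written along the strand of the gene. UQCRH lies on the plus strand at chr1:46303448-46303747, with the motif beginning at position -46, and UQCRC1 on the minus strand at chr3:48609597-48609896, with the motif at position -159.
UQCRH: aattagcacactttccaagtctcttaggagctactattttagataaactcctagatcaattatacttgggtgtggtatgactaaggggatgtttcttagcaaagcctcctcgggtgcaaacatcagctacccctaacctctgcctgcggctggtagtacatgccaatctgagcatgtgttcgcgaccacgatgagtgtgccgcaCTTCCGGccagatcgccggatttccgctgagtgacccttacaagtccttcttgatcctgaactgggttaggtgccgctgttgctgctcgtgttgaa
UQCRC1: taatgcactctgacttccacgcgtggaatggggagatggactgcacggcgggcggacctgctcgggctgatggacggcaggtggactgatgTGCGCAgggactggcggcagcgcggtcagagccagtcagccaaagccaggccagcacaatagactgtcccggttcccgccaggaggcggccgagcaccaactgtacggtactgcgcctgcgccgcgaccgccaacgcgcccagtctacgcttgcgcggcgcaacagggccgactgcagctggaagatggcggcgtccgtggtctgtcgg

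The libraries held between 16724650 and 24677433 reads on named genes, and the smallest was DMSO replicate 1. This library stood apart: its mean correlation with the other 5 was 0.989, against 0.992 to 0.993 for each of the others, so results that rest on it are given with and without it. Markers of rhabdomyosarcoma were present, with 9 of 10 tested, a summed normalized count of 97966 to 112190 in DMSO and 102940 to 107900 under YK-4-279, and 0 called by limma, edgeR or DESeq2. At an unadjusted limma p under 0.05 were 4 (all genes 18.7%), MYOG and DES at 0.23 and 0.14 on the log2 scale and FOXO1 and NCAM1 at -0.24 and -0.16, each without overlap of the groups. Without DMSO replicate 1 limma called 4 of the 9 lower (all genes 8.46%), FOXO1, FGFR4, CDH15 and NCAM1, with log2 fold changes from -0.17 to -0.13, and 0 higher, with MYOG, DES and PAX3 at 0.08 to 0.11. Endothelial markers summed to 235 to 318 in DMSO and 221 to 252 under YK-4-279. Most of that was TEK, at 195 to 272 against 165 to 188 (log2 fold change -0.38, limma adjusted p = 0.128), while PECAM1, CDH5, VWF and KDR stayed at or below 29.0. Of the 4 endothelial markers tested TEK was the only 1 lower, and 3 were higher, with 0 called. Their median log2 fold change was 0.26, or 0.07 without DMSO replicate 1. Epithelial markers summed to between 130.4 and 177 in all libraries, with CDH1 at 0 in 5 of 6. Haematopoietic markers summed to at most 1.9985, so their defining genes were at or near 0 throughout.

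Across the chain, YK-4-279 was accompanied by small differences, and a single member passed the test. With limma on log2(normalized count + 1) and Benjamini-Hochberg adjustment over the 13930 genes tested, 1 of 93 members was called at an adjusted p under 0.05, against 3.41% of all genes. That gene was COX7A1, which was higher (all genes called higher 1.26%), and 0 members were called lower (all genes 2.15%). An unadjusted p under 0.05 was reached by 11 members (11.8%), against 18.7% of all genes, and edgeR called 1 member, again COX7A1 (all genes 3.34%, 1.48% higher and 1.86% lower), and DESeq2 0 (all genes 4.85%). Of the 93 members 67 had a lower mean log2 value under YK-4-279 (72.0%), against 52.0% of all genes, and the median log2 fold change was -0.06, against -0.01 over all genes. In 16 members all 3 YK-4-279 libraries lay below all 3 DMSO libraries (17.2%, all genes 15.1%), in 2 they lay above (2.15%, all genes 10.9%), and in 75 the groups overlapped. For 81 members the whole 95% interval of the log2 fold change lay within 0.5 of 0 in either direction, and the median distance from the estimate to the end of the interval was 0.18.

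**Figure D1:**
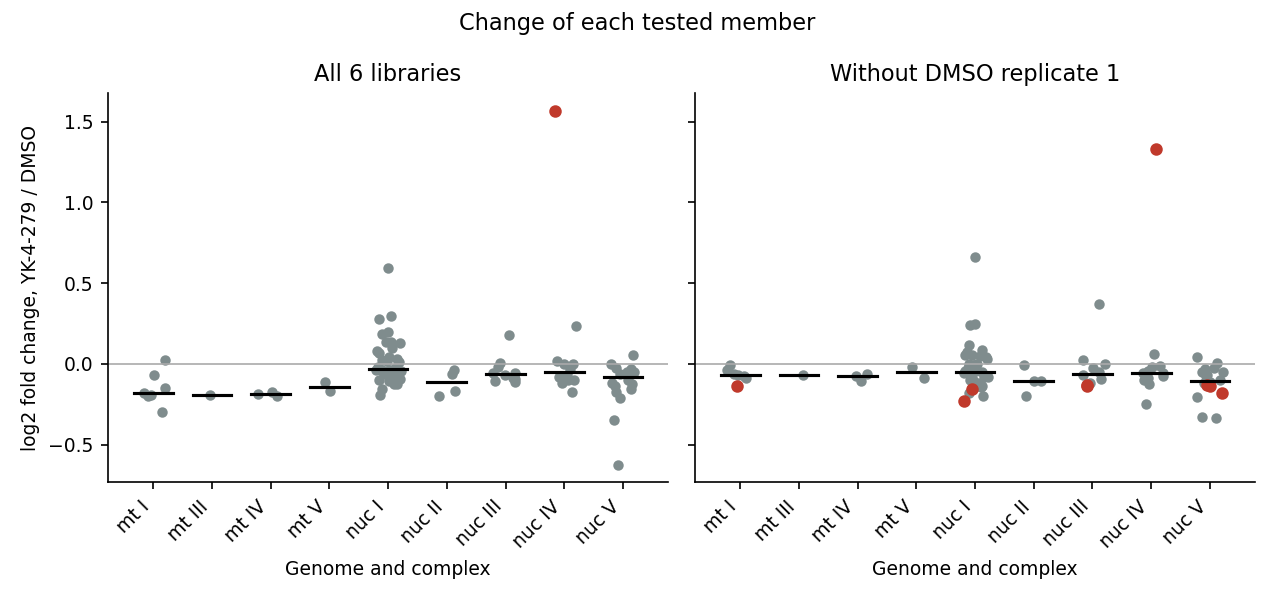
Log2 fold change (YK-4-279 over DMSO, limma) of each tested member by genome (mt, mitochondrial; nuc, nuclear) and complex, with all 6 libraries on the left and without DMSO replicate 1 on the right; points are genes, horizontal lines medians, and red points genes with an adjusted p under 0.05. The mitochondrial medians lie between -0.19 and -0.14 on the left and between -0.08 and -0.05 on the right, and COX7A1 is the only member above 1.

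The 13 mitochondrial mRNAs made up a large part of each library, and on the deposited scale nearly all had a lower mean under YK-4-279, by an amount that did not pass the test. Their median log2 fold change was -0.18, 12 of 13 were lower, and 0 were called by limma, edgeR or DESeq2, with 6 of them at an unadjusted limma p under 0.05 (46.2%, all genes 18.7%). Without DMSO replicate 1 the median was -0.07, with 13 of 13 lower (all genes 53.4%) and 1 called (7.69%, all genes 13.1%). The median stayed negative when the libraries were scaled by TMM (-0.16) or by their nuclear reads (-0.13), and was fixed near 0 by construction after quantile normalization and relative to the sum of the 13.

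The share of reads on named genes that fell on the 13 mRNAs was 6.05%, 4.99% and 4.93% in DMSO replicates 1, 2 and 3, and 4.74%, 5.03% and 4.80% under YK-4-279. DMSO replicate 1 was the highest, and the other 5 libraries lay within a narrow band in which the groups overlapped. The means were 5.32% ± 0.632 and 4.86% ± 0.153 (SD, n = 3 each), a difference of -0.47 percentage points (exact permutation test, two-sided, p = 0.3, where 3 against 3 cannot go below 0.1). Without DMSO replicate 1 the difference was -0.10 percentage points. Nuclear members took 0.541%, 0.569% and 0.565% of reads in DMSO and 0.544%, 0.566% and 0.562% under YK-4-279 (exact permutation test, p = 1.0), so that each library held 8.53 to 11.2 mitochondrial reads for every read on a nuclear subunit, the highest again in DMSO replicate 1.

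**Figure D2:**
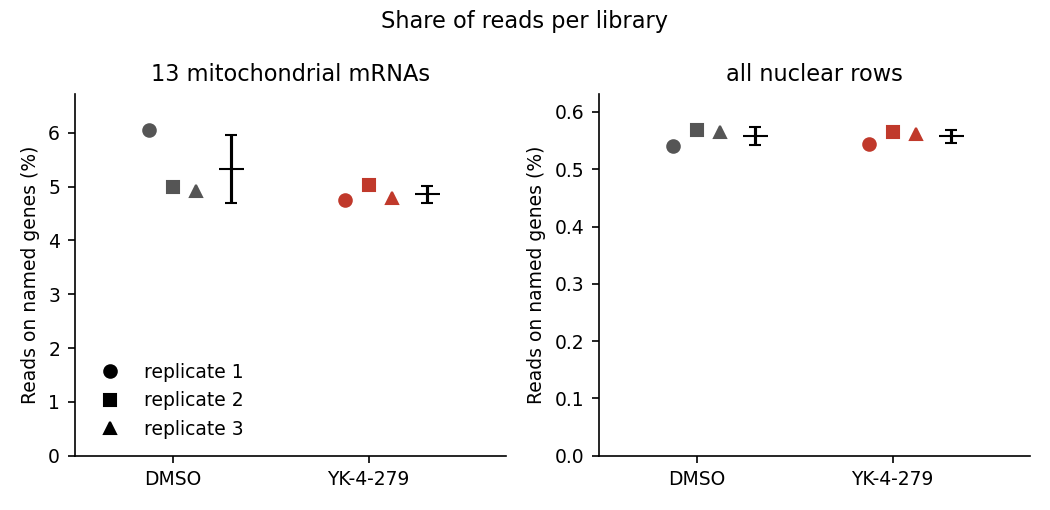
Share of reads on named genes that fell on the 13 mitochondrial mRNAs (left) and on the nuclear rows (right), in percent, for each library; marker shapes give the replicate number and the bars mean ± SD of 3 libraries. DMSO replicate 1 sits at 6.05% on the left while the other 5 libraries lie between 4.74% and 5.03%, and on the right all 6 lie between 0.541% and 0.569%.

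Complex I holds 7 mitochondrial subunits, the ND proteins of its membrane arm, which pumps protons. ND1, at chrM:3307-4262, had normalized counts of 62860, 57193 and 54442 in DMSO and 48990, 53456 and 50283 under YK-4-279. All 3 YK-4-279 libraries lay below all 3 of DMSO, also when replicate 1 was set aside. The log2 fold change was -0.19 (standard error, SE, 0.07, limma adjusted p = 0.131), and -0.13 without DMSO replicate 1 (limma adjusted p = 0.0476), where ND1 was the only mitochondrial gene called. ND5, at chrM:12337-14148, had 105220, 84343 and 82963 in DMSO and 77962, 82405 and 79018 under YK-4-279. Its groups did not overlap either, although DMSO replicates 2 and 3 exceeded YK-4-279 replicate 2 by little, and the log2 fold change was -0.18 (limma adjusted p = 0.261), or -0.07 without DMSO replicate 1.

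ND4, at chrM:10760-12137, counted 185390, 146260 and 143120 in DMSO and 133240, 144300 and 134470 under YK-4-279. YK-4-279 replicate 2 lay between DMSO replicates 2 and 3, and the log2 fold change was -0.20 (limma adjusted p = 0.255), or -0.08 without DMSO replicate 1. ND4L, whose frame precedes that of ND4 and ends inside it, counted 8671, 5217 and 6123 in DMSO and 4537, 5865 and 5630 under YK-4-279. Over all 6 libraries this was the largest difference among the mitochondrial genes on the log2 scale, -0.30 (limma adjusted p = 0.287), but the groups overlapped and the DMSO libraries lay further apart than the group means. Without DMSO replicate 1 it was -0.09 (limma adjusted p = 0.343), smaller than those of ND1 and COX3. Among the alternatives run it was called only when DMSO replicate 2 was left out, at -0.46 (limma adjusted p = 0.0385). ND2 had a log2 fold change of -0.15 (limma adjusted p = 0.308), or -0.06 without DMSO replicate 1.

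Among the 7 mitochondrial subunits of complex I the smallest differences over all libraries were those of ND3 and ND6. ND3, at chrM:10059-10404, counted 12532, 13092 and 13636 in DMSO and 12078, 14338 and 13588 under YK-4-279, with a log2 fold change of 0.02 (limma adjusted p = 0.882), or -0.01 without DMSO replicate 1. It was the only mitochondrial gene in which DMSO replicate 1 was not the highest library. ND6, at chrM:14149-14673, is the only protein gene read from the light strand. It counted 18747, 18401 and 16814 in DMSO and 16510, 17792 and 17238 under YK-4-279, so the groups overlapped, and its log2 fold change was -0.07 (limma adjusted p = 0.59), or -0.03 without DMSO replicate 1.

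CYTB codes for cytochrome b, the single mitochondrial subunit of complex III, which carries the quinone binding sites. Its normalized counts were 109820, 85308 and 84478 in DMSO and 78738, 85210 and 79362 under YK-4-279. YK-4-279 replicate 2 lay between DMSO replicates 2 and 3, and the log2 fold change was -0.19 (limma adjusted p = 0.267), or -0.07 without DMSO replicate 1.

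COX1, COX2 and COX3 form the core of complex IV, COX1 and COX2 holding its metal centres. COX1 was the most abundant member, with 396240, 309120 and 307630 in DMSO and 291500, 309370 and 284660 under YK-4-279. Apart from DMSO replicate 1 the libraries lay close together and overlapped, with a log2 fold change of -0.18 (limma adjusted p = 0.294), or -0.06 without that library. COX3, at chrM:9207-9990, counted 117140, 98719 and 95089 in DMSO and 86872, 93952 and 89516 under YK-4-279. All 3 YK-4-279 libraries were below DMSO, with a log2 fold change of -0.20 (SE 0.08, limma adjusted p = 0.186), or -0.11 without DMSO replicate 1. COX2 had a log2 fold change of -0.18 (limma adjusted p = 0.293), or -0.07 without DMSO replicate 1, with overlapping groups.

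ATP6 and ATP8 are the mitochondrial subunits of complex V, ATP6 forming part of the proton channel. ATP6, at chrM:8527-9207, counted 63887, 54605 and 54058 in DMSO and 49121, 53951 and 50506 under YK-4-279. The groups did not overlap, but YK-4-279 replicate 2 and DMSO replicate 3 were nearly equal, and the log2 fold change was -0.16 (limma adjusted p = 0.233), or -0.09 without DMSO replicate 1. ATP8, at chrM:8366-8572, counted 236, 161 and 230.4 in DMSO and 160.2, 208 and 207 under YK-4-279. Its libraries overlapped widely, with a log2 fold change of -0.11 (limma adjusted p = 0.736), or -0.02 without DMSO replicate 1. ND1, ND5, COX3 and ATP6 were thus the 4 of 13 whose groups did not overlap (all genes 15.1%). After a correction of every library for GC content and transcript length, 3 of the 13 were called lower, ND1, ATP6 and COX3, against 10.7% of all genes.

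**Figure D3:**
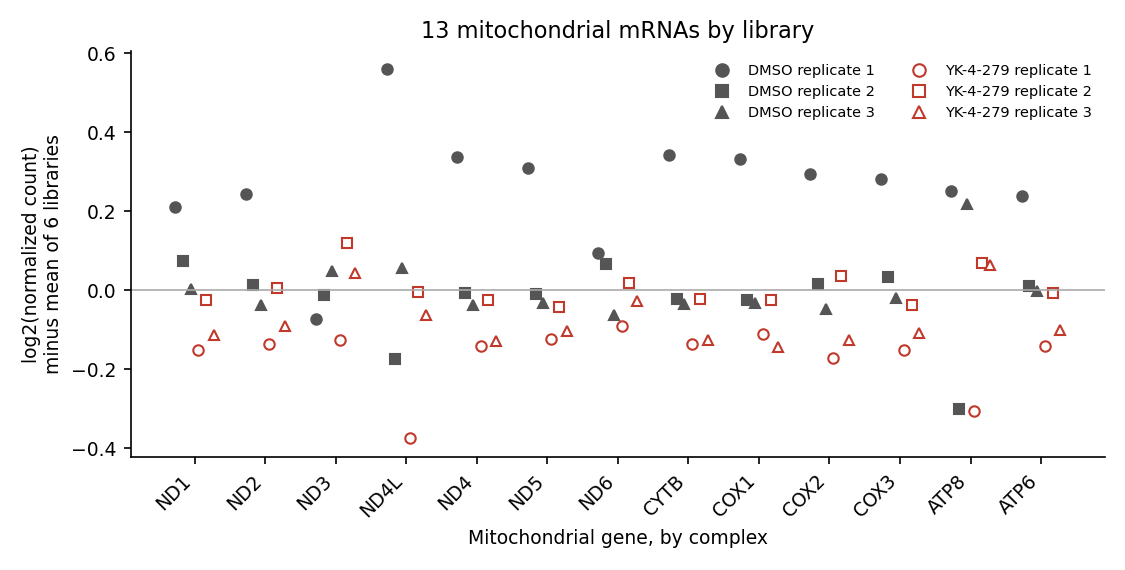
Log2 normalized count of each mitochondrial mRNA in each library, minus that gene's mean over the 6 libraries; filled markers are DMSO, open markers YK-4-279, and shapes give the replicate number. DMSO replicate 1 is the highest library for 12 of the 13 genes, and the other 5 libraries mostly lie within 0.2 of the mean.

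The share of each mRNA within the mitochondrial pool is given as a description, since 3 against 3 libraries cannot reach an exact p under 0.1. COX1 made up 31.1%, 29.9% and 30.3% of the 13 in DMSO and 30.9%, 30.2% and 29.9% under YK-4-279, and ND4 made up 14.5%, 14.1% and 14.1% against 14.1%, 14.1% and 14.1%. The exact permutation p over the 13 genes ranged from 0.2 to 0.9, and every adjusted value was 0.9. DMSO replicate 1 had the lowest share of ND1, ND2, ND3, ND6 and ATP6 and the highest of COX1, CYTB, ND4 and ND4L, so it differed in composition as well as in amount.

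Levels per length spanned a wide range. Per kb of transcript the mitochondrial mRNAs had mean normalized counts from 968 (ATP8) to 205200 (COX1), with a median of 57047, and the nuclear members from 13.004 (SDHA) to 8377 (ATP5F1B), with a median of 907. Both genes with an overlapped frame were low beside their neighbours: per kb ATP8 had 968 against 79816 for ATP6, and ND4L 20226 against 107260 for ND4. Reads that touch both frames of such a pair belong to no single gene, and their part in these levels was not tested. Nuclear copies of mitochondrial genes share sequence with the members. Of these, MTATP6P1 counted 2330 to 3797 and MTCO1P12 775 to 1106 per library, so the values of ATP6 and COX1 are uncertain by reads that could have come from or gone to a copy.

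Over all 6 libraries the nuclear subunits of complex I differed in both directions. Of 36 genes 20 were lower and 16 higher, the median log2 fold change was -0.03, and 0 were called by limma, edgeR or DESeq2 (1 at an unadjusted limma p under 0.05, 2.78%, all genes 18.7%). When DMSO replicate 1, the lowest library for 12 of them, was left out, 25 were lower and 11 higher, the median was -0.05, and limma called 2 lower (5.56%, all genes 8.46%). With GC content and length corrected for, the median was -0.07 and again 2 were called lower (all genes 10.7%). The gene at an unadjusted p under 0.05 was NDUFS8, an iron-sulphur subunit of the arm that takes electrons from NADH, with 1009, 1144 and 1049 normalized counts in DMSO and 952, 900 and 951 under YK-4-279. All YK-4-279 libraries were below all of DMSO, by -0.19 on the log2 scale (SE 0.07, limma adjusted p = 0.177), and by -0.23 without DMSO replicate 1 (limma adjusted p = 0.00385). With GC content and transcript length corrected for over all libraries it was called as well, at -0.33 (limma adjusted p = 0.00349). NDUFS1, the large iron-sulphur subunit and the nuclear member of complex I with the highest mean, counted 3147, 2895 and 2886 in DMSO and 2707, 2830 and 2896 under YK-4-279. YK-4-279 replicate 3 reached the DMSO range, and the log2 fold change was -0.08 (limma adjusted p = 0.499), or -0.04 without DMSO replicate 1.

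The highest log2 fold changes in complex I among genes with a mean of at least 100 were those of NDUFA1 and NDUFA8, accessory subunits. NDUFA1 counted 826, 1111 and 1115 in DMSO and 1001, 1217 and 1269 under YK-4-279, and NDUFA8 counted 889, 1222 and 1136 against 1189, 1252 and 1218. In both, DMSO replicate 1 was the lowest of the 6 libraries and the others overlapped. NDUFA1 had a log2 fold change of 0.20 (limma adjusted p = 0.383) and NDUFA8 of 0.18 (limma adjusted p = 0.338), and both came to 0.05 without it. NDUFA11, a membrane subunit, had a log2 fold change of -0.12 (limma adjusted p = 0.682), or -0.20 without DMSO replicate 1.

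Complex II oxidises succinate and is also an enzyme of the tricarboxylic acid cycle. Its 4 genes were all lower in mean. The median log2 fold change was -0.11, and 0 were called by limma, edgeR or DESeq2 (0 at an unadjusted limma p under 0.05). SDHD, a membrane anchor, counted 630.4, 496 and 545 in DMSO and 470, 492 and 485 under YK-4-279, each YK-4-279 library below each of DMSO. The log2 fold change was -0.20 (SE 0.09, limma adjusted p = 0.271), and -0.11 without DMSO replicate 1. SDHB, the iron-sulphur subunit and the most highly counted of the 4, had a log2 fold change of -0.06 (limma adjusted p = 0.646), or -0.01 without DMSO replicate 1. Summed over the complex the normalized counts were 4039, 3868 and 3884 in DMSO and 3658, 3822 and 3694 under YK-4-279, not overlapping (exact permutation test, p = 0.1, the smallest that 3 against 3 allows).

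Of the 10 tested nuclear genes of complex III, which passes electrons from ubiquinol to cytochrome c, 8 were lower and 2 higher, the median log2 fold change was -0.06, and 0 were called by limma, edgeR or DESeq2 (0 at an unadjusted limma p under 0.05). UQCRFS1, the Rieske iron-sulphur protein, counted 2070, 2079 and 2112 in DMSO and 1792, 2057 and 1949 under YK-4-279. It was the only gene of the complex whose groups did not overlap, by a narrow margin at YK-4-279 replicate 2, and the log2 fold change was -0.11 (limma adjusted p = 0.374). UQCRC2, a core subunit, had -0.10 (limma adjusted p = 0.452), and -0.03 without DMSO replicate 1. CYC1, the cytochrome that hands electrons to cytochrome c, counted 3217, 4075 and 3818 in DMSO and 3707, 3722 and 3665 under YK-4-279. The YK-4-279 libraries lay close together, with DMSO replicate 1 below them and DMSO replicates 2 and 3 above, and the log2 fold change was 0.00 with it and -0.09 without it (limma adjusted p = 0.983 and 0.144).

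UQCRH, the hinge subunit, and UQCRC1, the other core subunit, whose promoters are printed above, were both called once DMSO replicate 1 was left out, and UQCRC1 also over all libraries once GC content and transcript length were corrected for (-0.17, limma adjusted p = 0.00947). UQCRH counted 2932, 3377 and 3395 in DMSO and 2997, 3184 and 3065 under YK-4-279, and UQCRC1 2410, 2730 and 2599 against 2448, 2462 and 2378. DMSO replicate 1 lay below the YK-4-279 values of UQCRH and among those of UQCRC1, and DMSO replicates 2 and 3 lay above them in both. The log2 fold changes were -0.07 and -0.08 over all libraries (limma adjusted p = 0.633 and 0.497), and -0.14 and -0.13 without DMSO replicate 1 (limma adjusted p = 0.0255 and 0.0376).

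Complex IV had 12 tested nuclear genes, 7 lower and 5 higher, the median log2 fold change was -0.05, and 1 was called (8.33%, all genes 3.41%), which was COX7A1. That gene met the mean count of 10 only through the YK-4-279 group, so this share is not read as a result about the complex. Leaving out DMSO replicate 1 gave 10 lower and 2 higher, with the median at -0.06. With GC content and transcript length corrected for, limma called 2 of the 12 lower (16.7%, all genes 10.7%), COX4I1 and COX6B1. COX7C, the nuclear subunit of the complex with the highest level per kb, counted 2885, 3052 and 3089 in DMSO and 2955, 3144 and 3034 under YK-4-279, with a log2 fold change of 0.02 (95% interval -0.11 to 0.14, limma adjusted p = 0.908). NDUFA4, with the highest mean of the nuclear subunits, had -0.07 (limma adjusted p = 0.561). COX7B and COX5A showed the lowest log2 fold changes among its nuclear genes with a mean of at least 100, -0.17 and -0.12 (limma adjusted p = 0.33 and 0.339). That of COX7B was -0.07 without DMSO replicate 1, and the groups of COX5A, a matrix subunit, did not overlap, with 2104, 2196 and 2053 in DMSO against 1841, 2007 and 2011. COX5B, at 1082, 1599 and 1531 against 1514, 1719 and 1664, had a log2 fold change of 0.24 (limma adjusted p = 0.299) that came to 0.06 without DMSO replicate 1, its lowest library.

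In complex V 16 of 18 genes were lower and 2 higher, the median log2 fold change was -0.08, and 0 were called by limma, edgeR or DESeq2 (3 at an unadjusted limma p under 0.05, 16.7%, all genes 18.7%). With GC content and transcript length corrected for, limma called 5 of the 18 lower (27.8%, all genes 10.7%), ATP5F1A among them. ATP5F1A, the alpha subunit of the catalytic head, counted 8266, 7596 and 7631 in DMSO and 6852, 7114 and 6868.5 under YK-4-279. Every YK-4-279 library was below every DMSO library, the log2 fold change being -0.17 (SE 0.06, limma adjusted p = 0.112) and -0.13 without DMSO replicate 1 (limma adjusted p = 0.0164). ATP5F1B, the beta subunit that carries the catalytic sites and the nuclear member with the highest mean, counted 15359, 15198 and 14637 in DMSO and 14082, 15196 and 13936 under YK-4-279. Its groups overlapped through YK-4-279 replicate 2, and the log2 fold change was -0.07 (95% interval -0.19 to 0.05, limma adjusted p = 0.564).

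ATP5PO, which belongs to the stalk that holds the head, had a log2 fold change of -0.21 that came to -0.03 without DMSO replicate 1 (limma adjusted p = 0.498 and 0.929). At the other end were ATP5F1D, a subunit of the rotor stalk, at 0.00, and ATP5IF1, the inhibitor of ATP hydrolysis, at 0.05 (limma adjusted p = 0.999 and 0.753), which were -0.05 and -0.02 without DMSO replicate 1. The summed normalized counts of complex V were 46527, 46270 and 45965 in DMSO and 42646, 45167 and 43310 under YK-4-279. The groups did not overlap (exact permutation test, p = 0.1, the smallest possible, log2 ratio -0.08), and in 5 of the 18 genes all YK-4-279 libraries lay below DMSO (27.8%, all genes 15.1%). Summed complexes I, III and IV gave log2 ratios of -0.01, -0.07 and -0.04 (exact permutation test, p = 0.8, 0.2 and 0.5). With DMSO replicate 1 left out, those of I, III and IV were -0.05, -0.09 and -0.05 (exact permutation test, p = 0.3, 0.1 and 0.5), and those of complexes II and V were -0.06 and -0.08 (p = 0.2 each by the same exact test).

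COX7A1, the muscle form of subunit VIIa of complex IV, was the single member that passed the test, and it was a gene with few reads. It lies at chr19:36150922-36152449 on the minus strand (hg38), and no exon of another gene in GENCODE overlaps its exons. Its normalized counts were 3.78, 5.996 and 7.51 in DMSO and 24.0, 17.4 and 15.0 under YK-4-279. All YK-4-279 libraries were about 2-fold or more above the highest of DMSO, on 77 reads in all 6 libraries together. The log2 fold change was 1.56 (standard error 0.39, 95% interval 0.72 to 2.41, limma adjusted p = 0.0466), understated by the pseudocount of 1. With edgeR the adjusted p was 0.0374, and DESeq2 gave no adjusted p to a gene of so low a mean. The gene passed the filter only through the group in which it was high. Its call was lost without DMSO replicate 3 (limma adjusted p = 0.0618) and without YK-4-279 replicate 1, 2 or 3 (limma adjusted p = 0.278, 0.173 and 0.135), and kept without DMSO replicate 1 (log2 fold change 1.33, limma adjusted p = 0.0239) or 2 (limma adjusted p = 0.0485). Among other settings it was also lost without the filter on low counts (limma adjusted p = 0.0683), after quantile normalization (0.106) and without the trend of variance on mean (0.0906).

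COX7A2 codes for the form of the same subunit found in most tissues, and its counts in the groups lay close together. There were 1295, 1413 and 1422 in DMSO and 1284, 1459 and 1395 under YK-4-279, overlapping, with a log2 fold change of 0.00 (95% interval -0.15 to 0.16, limma adjusted p = 0.993), or -0.04 without DMSO replicate 1. COX7A1 made up 0.291%, 0.423% and 0.526% of the reads on both genes in DMSO and 1.84%, 1.18% and 1.07% under YK-4-279. The groups did not overlap, although even under YK-4-279 COX7A2 held nearly all reads of the pair. The log2 ratio within a library, formed with the pseudocount of 1, which makes it smaller than the ratio of reads, differed by 1.56 (exact permutation test, p = 0.1, the smallest possible, 0.48 adjusted over 6 pairs).

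**Figure D4:**
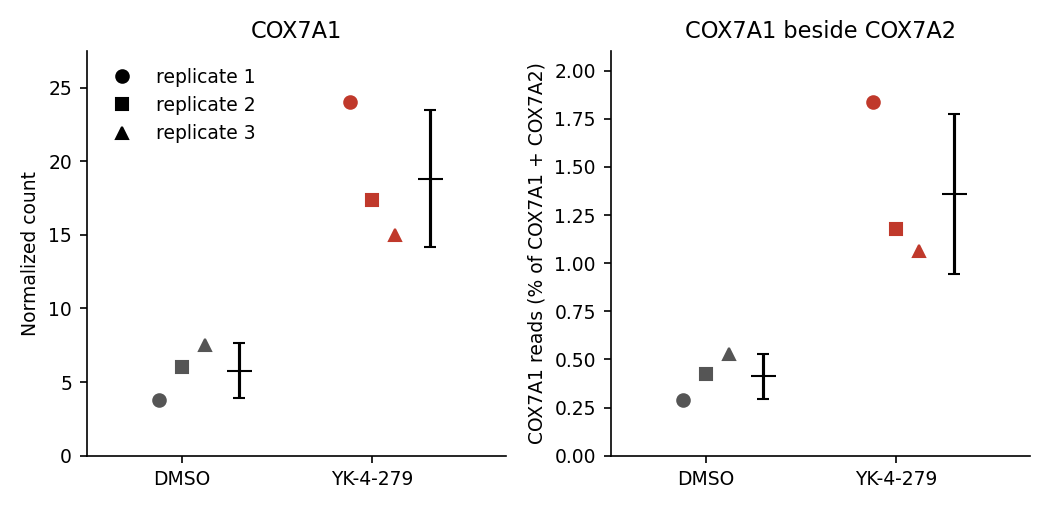
Normalized count of COX7A1 (left) and reads on COX7A1 as a percent of reads on COX7A1 and COX7A2 (right) for each library; shapes give the replicate number and bars mean ± SD of 3 libraries. On the left DMSO lies between 3.78 and 7.51 and YK-4-279 between 15.0 and 24.0, and on the right DMSO lies between 0.291% and 0.526% and YK-4-279 between 1.07% and 1.84%.

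The ratios of other paired forms are likewise a description, since no shift could have passed an exact test of 3 against 3. ATP5MC1, ATP5MC2 and ATP5MC3 code for the same mature c subunit of the proton rotor, and the log2 ratio of ATP5MC2 over ATP5MC1 was 1.04 ± 0.105 in DMSO and 1.105 ± 0.0264 under YK-4-279 (SD, n = 3 each, exact permutation p = 0.4). For ATP5MC3 over ATP5MC1 and over ATP5MC2 the differences in log2 ratio were 0.06 and -0.01 (exact permutation p = 0.3 and 0.9). UQCRHL, a near copy of UQCRH, held 0.88% to 1.92% of the reads of that pair, and reads of either could have been given to the other. NDUFA4L2, a relative of NDUFA4 known for its induction in low oxygen, held 5.34% to 6.86% of the reads of its pair, with a difference in log2 ratio of 0.15 (exact permutation p = 0.3).

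The forms of complex IV subunits known from other tissues were at or near 0 reads. COX4I2, the lung form of COX4I1, had 0 reads beside 16486 on COX4I1 over the 6 libraries, which allows a share of up to 0.0182% of that pair. COX6A2, the heart and muscle form of COX6A1, and COX7B2, a relative of COX7B known from testis, also had 0 reads, allowing up to 0.613% and 0.0496% of their pairs. These limits cover counting error only. COX6B2 had 16 reads in all and COX8C had 6, beside 12738 on COX6B1 and 1802 on COX8A. COX7A1 was the only form of this kind that was tested, and it reached the mean of 10 only through the YK-4-279 group, with 18.8 ± 4.66 against 5.76 ± 1.88 in DMSO (SD, n = 3 each).

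DMSO replicate 1 held the extreme value of many members. It was the highest of the 6 for 12 mitochondrial and 21 nuclear members and the lowest for 20 nuclear ones, 12 of which belong to complex I. NDUFS6, a small accessory subunit of complex I, counted 444 there against 786 and 766 in DMSO replicates 2 and 3, and NDUFV1, the subunit that binds NADH, counted 1611 against 2302 and 2099. Under YK-4-279 they counted 688 to 718 and 1955 to 2043, and their log2 fold changes of 0.13 and 0.02 came to -0.14 and -0.13 without that library. On the log2 scale DMSO replicate 1 differed from the mean of the other DMSO libraries by a median of 0.27 over the mitochondrial members and -0.06 over the nuclear ones, which ranged from -0.80 to 0.88.

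The deviation of DMSO replicate 1 moved with base composition. Among the nuclear members its Pearson correlation with transcript GC content was -0.29 (n = 80 genes of 1 library, a description only), against -0.01 to 0.22 in the other 5 libraries, and over the 13718 genes with a GC value it was -0.50. The 20 members of highest GC content (54.5% to 69.6%) were lower in DMSO replicate 1 than in the other DMSO libraries by a median of -0.17, with 16 of 20 lower, whereas the 20 of lowest GC content (34.6% to 43.0%) were higher by a median of 0.06. The part of this in each result was not tested.

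Leaving out DMSO replicate 1 gave more calls, over all genes and among the members. With it left out, 13.1% of all genes were called by limma, and 9 of 93 members (9.68%), namely COX7A1 higher (all genes called higher 4.62%) and ND1, UQCRC1, UQCRH, NDUFS8, NDUFB11, ATP5F1A, ATP5MC1 and ATP5MC3 lower. The share called lower was 8.60% of members and 8.46% of all genes. ATP5MC1 counted 1846 and 1715 in DMSO replicates 2 and 3 and 1596, 1560.4 and 1554 under YK-4-279, a log2 fold change of -0.18 (limma adjusted p = 0.00807). All 3 YK-4-279 libraries lay below both of the remaining DMSO libraries in 30 members (32.3%), against 22.9% of all genes.

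With GC content and length corrected for over all 6 libraries, 14.3% of all genes were called, and 13 members were called lower (14.0%, all genes 10.7%) with COX7A1 higher (all genes 3.62%). With both changes 17.9% of all genes were called, and 23 members were lower (24.7%, all genes 13.2%), 3 mitochondrial and 20 nuclear, with none of complex II among them. COX7A1 was again the only member called higher (all genes 4.75%). The nuclear median was -0.05 over all libraries, -0.06 without DMSO replicate 1 and -0.08 with that correction, and it lay nearer to 0 when the libraries were scaled by nuclear reads (-0.01), a scaling that set the median of all genes at 0.04.

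Nuclear members that share most of their exons with other genes had low counts per length. For 7 members at least 50% of the exonic bases of the main transcript also belonged to an exon of another gene in GENCODE on the same strand, often a readthrough transcript, and these were SDHA, NDUFB8, NDUFA11, NDUFV2, NDUFA13, ATP5PO and NDUFA7. Their mean normalized counts per kb ran from 13.004 to 250.4, with a median of 38.8. The 9 members with 10% to under 50% shared had a median of 149, and the 64 with less than 10% a median of 1273. Exons shared with a gene on the opposite strand were not part of these classes. Among the 64, NDUFS7 had 51.3% shared in that way and 68.9 per kb, and ATP5ME 39.6% and 86.3. ATP5F1E, with 32.7%, had 951. SDHA, the catalytic subunit of complex II, had 13.004 per kb, against 1960.1 for the most abundant gene of its own complex, and NDUFV2, a core subunit of complex I with 90.0% of its exonic bases shared, had 14.3.

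**Figure D5:**
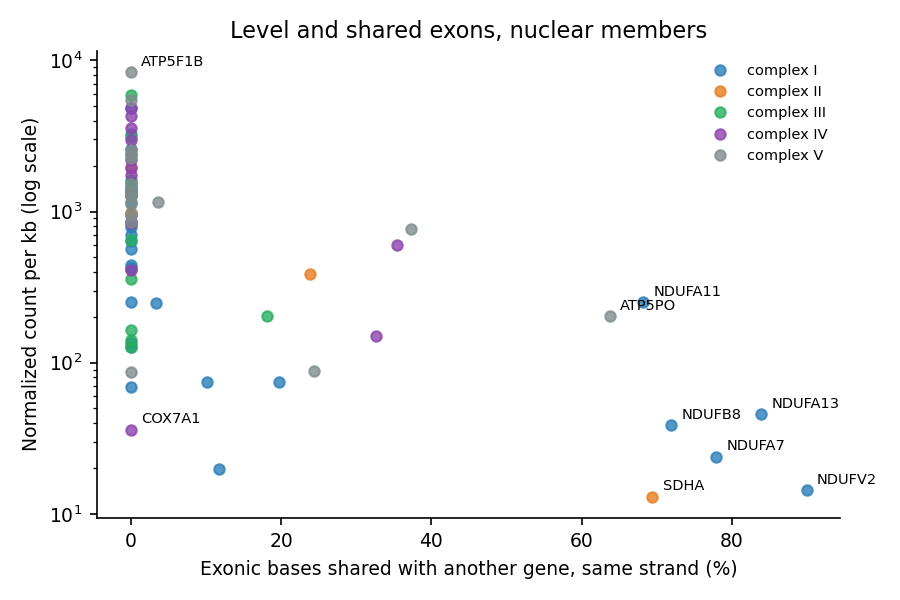
Mean normalized count per kb (log scale) of the 80 tested nuclear members against the percent of exonic bases that also belong to another gene on the same strand, coloured by complex. The 7 genes with 50% or more shared lie at 250.4 or below, whereas the 64 with less than 10% have a median of 1273, COX7A1 (36.1) being the lowest of these.

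Counting with STAR leaves out reads that fall on more than 1 gene, so the counts of such members need not stand for the levels of their mRNAs. The annotation the authors counted with is not given in the sources used here, and how much the shared exons account for was not tested. NDUFA13, named here after its values were seen, was the other tested member besides COX7A1 with all YK-4-279 libraries above DMSO, at 20.2, 16.0 and 19.2 against 30.8, 34.8 and 21.0, a log2 fold change of 0.60 (limma adjusted p = 0.273). In this gene 83.9% of the exonic bases were shared.

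Letters of the ETS and NRF1 cores were more frequent in promoters of the nuclear members than in promoters at large. RefSeq promoters were found for 66 of the 80 tested members, 9 of them with more than 1 start, in which a match at any start was counted. On either strand CCGGAAG occurred in 21 of 66 (31.8%), against 12.2% of the 27305 genes with a promoter. TGCGCA, which reads the same on both strands, occurred in 20 (30.3%), against 9.76%, and 35 members held at least 1 of the motifs, which cannot overlap each other. The ETS core was found in 5 of 31 genes of complex I, 5 of 10 of complex IV and 6 of 14 of complex V. The 27305 genes were not limited to those tested here and were not matched to the members for GC or CpG content. Whether the higher shares are particular to the members was therefore not tested.

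Members with and without the ETS core had close median log2 fold changes under YK-4-279. The 21 members that held it were at -0.06, with 17 lower, and the 45 without it at -0.05, with 29 lower. Without DMSO replicate 1 the medians were -0.06 and -0.07. A match is only a match of letters, and the promoters of COX7A1 and others without a table entry were not searched.

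Genes around the respiratory chain were taken from lists by function. The 13 tested genes of cytochrome c and coenzyme Q synthesis, the electron carriers between the complexes, had 8 lower and 5 higher, a median log2 fold change of -0.01, and 0 called by limma, edgeR or DESeq2 (1 at an unadjusted limma p under 0.05). The median without DMSO replicate 1 was -0.10, against -0.01 over all genes, and 1 was called (all genes 13.1%, higher 4.62%), COQ10B, a coenzyme Q binding protein, at 0.29 (limma adjusted p = 0.0198). CYCS, cytochrome c itself, counted 6239, 6271 and 6340 in DMSO and 5679, 6164 and 5860 under YK-4-279, not overlapping, with a log2 fold change of -0.09 (limma adjusted p = 0.394). Of the 46 tested assembly factors, which put the complexes together, 23 were lower and 23 higher (median -0.01, or -0.04 without DMSO replicate 1). Limma and edgeR called 0, 5 were at an unadjusted limma p under 0.05 (all genes 18.7%), and DESeq2 called 1 (all genes 4.85%). That gene was LYRM7, which serves the insertion of the Rieske protein UQCRFS1 into complex III, with 1199, 1041 and 1085 against 911, 893 and 941. Its groups did not overlap, by -0.27 on the log2 scale (limma adjusted p = 0.0583), and it was called without DMSO replicate 1 (-0.22, limma adjusted p = 0.00616). There it was the only 1 of the 46 called (all genes 13.1%, lower 8.46%).

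Of 29 genes tested for the maintenance and expression of mitochondrial DNA, 15 were lower and 14 higher (median -0.02, or 0.005 without DMSO replicate 1), with 1 called by each of limma (all genes 3.41%), edgeR (3.34%) and DESeq2 (4.85%). TWNK, the helicase that unwinds mitochondrial DNA for replication, rose from 1432, 1726 and 1597 to 1975, 1969 and 2029. The groups did not overlap, the log2 fold change was 0.33 (SE 0.07, limma adjusted p = 0.0247), and it was 0.26 without DMSO replicate 1. POLRMT, the mitochondrial RNA polymerase, had 0.18 (limma adjusted p = 0.249). TFAM, which packages mitochondrial DNA and starts its transcription, counted 1536, 1444 and 1361 in DMSO and 1195, 1267 and 1236 under YK-4-279. All YK-4-279 libraries were below DMSO, by -0.23 (limma adjusted p = 0.0834), and TFAM was called without DMSO replicate 1 (-0.19, limma adjusted p = 0.0111). There 1 of the 29 was called lower (all genes 8.46%) and 1 higher, TWNK (all genes 4.62%).

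Among regulators of mitochondrial biogenesis 12 were tested, 6 lower and 6 higher (median -0.02, or -0.005 without DMSO replicate 1), with 0 called by limma, edgeR or DESeq2 and 6 at an unadjusted limma p under 0.05 (all genes 18.7%). GABPA, the ETS subunit of GABP, counted 2208, 1794 and 1781 in DMSO and 1664, 1700 and 1664 under YK-4-279, and NRF1 counted 625, 602 and 609.5 against 524, 547 and 544. Neither gene's groups overlapped, and their log2 fold changes were -0.19 and -0.18 (limma adjusted p = 0.214 and 0.204), the first of which was -0.09 without DMSO replicate 1. The other 4 at an unadjusted limma p under 0.05 were GABPB1, the partner subunit in GABP, at -0.28, PRKAA1, a catalytic subunit of the AMP-activated kinase, at -0.20, and 2 that were higher, ESRRA, a nuclear receptor, at 0.35 and TFEB, a regulator of lysosomal genes, at 0.78 on low counts (limma adjusted p from 0.103 to 0.216). The groups of ESRRA overlapped. Without DMSO replicate 1 the log2 fold changes were -0.20 for GABPB1, -0.09 for PRKAA1, 0.15 for ESRRA and 0.77 for TFEB. PPARGC1A, a coactivator of biogenesis, had at most 10.3 normalized counts and was not tested.

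Of 23 genes of the tricarboxylic acid cycle and pyruvate entry, which supply the chain with electrons, 16 were lower and 7 higher (median -0.06, or -0.05 without DMSO replicate 1). Limma and edgeR called 0 and DESeq2 1 (all genes 4.85%), with 5 at an unadjusted limma p under 0.05 (all genes 18.7%). The DESeq2 call was PDK1, a kinase that shuts pyruvate dehydrogenase, at 894, 664.5 and 739.8 against 558, 599 and 589, a log2 fold change of -0.39 (limma adjusted p = 0.0512). PDK4, a kinase of the same kind that is high in muscle, differed in the other direction on few reads, at 31.5, 25.0 and 28.4 against 57.4, 42.4 and 43.0, with a log2 fold change of 0.72 (limma adjusted p = 0.0929). Both were non-overlapping, and both were called without DMSO replicate 1 (limma adjusted p = 0.00481 and 0.0275). OGDH, also non-overlapping, was called lower there too, at -0.15 (limma adjusted p = 0.0236). In all 2 of the 23 were then called lower (all genes 8.46%) and 1 higher (all genes 4.62%).

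Genes named like members but outside the rule numbered 8, with 4 lower, 4 higher, a median of -0.03 with or without DMSO replicate 1, and 0 called by limma, edgeR or DESeq2 (1 at an unadjusted limma p under 0.05). Among them NDUFAB1, the acyl carrier subunit of complex I, had a log2 fold change of -0.05 and NDUFA4L2 of 0.08 (limma adjusted p = 0.746 and 0.725). Of the nuclear copies of mitochondrial genes 6 were tested, 4 lower and 2 higher (median -0.08), and 0 were called by limma, edgeR or DESeq2 (1 at an unadjusted limma p under 0.05). MTATP6P1 counted 3797 in DMSO replicate 1 and 2330 to 2879 in the other libraries, and so was highest in the same library as ATP6. The mitochondrial ribosomal RNAs were not analysed here.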

How the data were processed

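Poly(A) RNA of 6 Rh30 libraries, 3 per group, was measured. The authors trimmed reads with BBDuk, aligned them to hg38 with STAR 2.7.9a, counted them per gene and normalized with DESeq2 1.44.0. The deposited signal is a normalized count, reads divided by a factor of the library, for 35269 rows, of which 1 without a name (at most 6 reads) was left out. No column of the table used held a comparison by the authors. Every value in each library (100%) gave whole reads within 0.001 after division by its step. The kit marks strand, but the strand setting of the counting is not given in the sources used here.

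Genes with a mean of at least 10 were tested with limma 3.58.1 (lmFit, eBayes with trend) in R 4.3.3 on log2(normalized count + 1), two-sided, Benjamini-Hochberg over 13930 genes, called at an adjusted p under 0.05. Shares and ratios were compared by exact permutation. Alternatives were pseudocounts of 0.5 and 10, other filters and scalings, no trend, a replicate block, each library left out, edgeR 4.0.16 (quasi-likelihood), DESeq2 1.42.0 (both on recovered reads), and a correction in which a smooth function of GC content and transcript length, fitted per library with mgcv 1.9-3, was subtracted (98.5% of genes had values). Code was tested on simulated reads. Same-numbered libraries did not deviate together (correlations -0.10, -0.03 and -0.03), so the numbers were not taken as pairs.

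Positions, exons and lengths are of main transcripts in GENCODE v44 on hg38, promoters are from RefSeq on GRCh38.p14. The members and lists were chosen with earlier results of these data known. Named were the mitochondrial genes, called nuclear members, per complex the highest mean and up to 2 largest rises and 2 largest falls at a mean of at least 100, detected paralogs, and called or preset genes of each list. Others (NDUFS6, NDUFV1, NDUFA13, NDUFS7, ATP5ME, ATP5F1E, isoforms at or near 0, TEK, GABPB1, PRKAA1, ESRRA, TFEB, LYRM7, PDK1, PDK4 and those called without DMSO replicate 1) were named after their values were seen.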

Additional observations from a re-analysis of the deposited data

How the results depend on the processing

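Over all genes 475 were called; 277 were called after quantile normalization, 33 by eBayes without trend, 180 with a replicate block, 1960 after correction for GC content and length, and 19 to 1823 with a library left out (1823 without DMSO replicate 1, 242 without DMSO replicate 3, and 19, 23 and 46 without YK-4-279 replicates 1, 2 and 3). The shared replicate numbers did not pair the samples. Of the 475 calls 37.1% were higher, against 60.1% when scaled by nuclear reads, 47.6% after quantile normalization, 90.9% without trend and 25.3% after the correction. Mitochondrial members called (0 over all libraries) were 3 with the correction and 0 to 1 with a library left out (ND1 without DMSO replicate 1, ND4L without DMSO replicate 2). Nuclear members called (1) were 0 without a filter, at a mean of at least 100, after quantile normalization, without trend, with the replicate block (COX7A1, adjusted p = 0.0971 by limma) and by DESeq2, which gave COX7A1 no adjusted p, 11 with the correction, and 0 to 8 with a library left out. The mitochondrial median of -0.18 was 0 after quantile normalization, where the top ranks are fixed by construction, and 0.00109 relative to the sum of the 13, which moved the median of all genes to 0.17. The nuclear median of -0.05 was -0.006246 when scaled by nuclear reads. An alternative chosen after seeing the data, without DMSO replicate 1 and with the correction, called 2459 genes, 3 mitochondrial and 21 nuclear members. The cause of these changes was not tested.

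Of 754 values of 42 named members under alternatives, 710 kept direction and side of the threshold, 8 lost a call (all of COX7A1), 15 gained one and 21 turned in sign, in 11 members that were never called when they turned. With the correction the log2 fold change was -0.1046 for ATP5F1D, -0.04087 for ATP5IF1, 0.002357 for ATP5MC3, -0.05769 for COX7A2 and -0.1024 for CYC1, and after quantile normalization 0.009771 for ATP5MC2. With a library left out it ran from -0.04687 to 0.05523 for ATP5F1D, -0.02391 to 0.1009 for ATP5IF1, -0.2915 to 0.00913 for ATP8, -0.0414 to 0.05281 for COX7A2, -0.01284 to 0.03824 for COX7C, -0.2477 to 0.009814 for COX8A, -0.09316 to 0.07743 for CYC1, -0.02992 to 0.09384 for ND3 and -0.04777 to 0.3692 for UQCRHL. The share of reads on mitochondrial mRNAs, -0.47 percentage points, kept its sign in all alternatives run, with the replicate block at an exact sign-flip p of 0.5. A share that counts mitochondrial ribosomal and transfer RNA was planned and not run. The 95% interval lay within 0.5 of 0 for 81 of 93 members.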
